A study of Bos taurus with 6 samples.

Results

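Mitochondrial carriers of the SLC25 family were examined in bovine blastocysts produced in vitro. The family's members were taken as every gene of the deposited table whose name begins with SLC25A followed by a number, which gave 31 of 9537 genes. The RefSeq gene table of ARS-UCD2.0 lists 46 such symbols, and all 31 members matched it by symbol. The other 15, among them the adenine nucleotide translocase SLC25A6, the aspartate-glutamate carrier SLC25A13 and the outer membrane protein SLC25A46, were not analysed here. The libraries were made from embryos of low cryosurvival after vitrification (3 libraries, with NV codes in their titles) and from embryos of high cryosurvival after vitrification (3, with V codes). Vitrification is rapid cooling to an ice-free glass. Every library came from blastocysts grown in the same synthetic oviduct fluid medium (SOFaaci). The labels do not say how many embryos a library held, whether a group's libraries were from separate cultures, at which point relative to vitrification RNA was extracted, or what V and NV stand for. The p-values thus reflect the spread among these libraries alone, which may be technical, and anything else the codes may mark cannot be told apart from cryosurvival.

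Carriers of this family sit mostly in the inner mitochondrial membrane and exchange nucleotides, phosphate, carboxylic acids, amino acids, cofactors and iron between the cytosol and the matrix. They are made in the cytosol and inserted through the translocases of the outer and inner membranes. In the early embryo mitochondria supply ATP and precursors for synthesis. Glutathione, which is imported into mitochondria, detoxifies peroxides in the matrix. The values were CPM (read counts scaled to a common library size), which are not divided by transcript length. A level is therefore compared between libraries and not between genes.

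Recovered reads in the table numbered 14651477 in low cryosurvival library 2, the fewest, and 17591314 to 19467022 in the other 5 libraries. Low cryosurvival library 2 stood apart from the rest. It was the lowest or the highest of the 6 libraries in 69.9% of all genes, against 16.9% to 43.9% for each of the other 5 libraries. Its CPM of all genes in the table summed to 1.10 times the nominal total, against 0.961 to 0.996 times in the others. Calls of members that turn on it are given with and without it, and the plot of differences shows 30 members both ways. Of the blastocyst markers, 6 of 6 for trophectoderm, 5 of 5 for inner cell mass and epiblast and 4 of 5 for hypoblast were in the table. The trophectoderm markers had log2 differences (low minus high) below 0 in 6 of 6 (median -0.19, and -0.26 without low library 2), with 0 called by limma. In 2 of the 6 every low library was below every high one, against 10.6% of all genes. These markers summed to 26370 to 36390 CPM in low and 30910 to 34140 CPM in high cryosurvival libraries, mostly from KRT8 and KRT18. The inner cell mass and epiblast markers had differences above 0 in 3 and below 0 in 2 (median 0.0038, and -0.17 without low library 2), with 0 called by limma. In 1 of the 5 every low library was below every high one, against 10.6% of all genes. These markers summed to 945 to 1272 CPM in low and 1030 to 1152 CPM in high cryosurvival libraries, mostly from POU5F1. Among them NANOG, a regulator of the epiblast, had 22.1, 12.2 and 14.4 CPM in the low libraries, against 47.3, 31.2 and 37.6 CPM in the high ones, with a log2 difference of -1.23 (limma adjusted p = 0.164) and an adjusted p of 0.002 in the authors' deposited table. The hypoblast markers had differences above 0 in 3 and below 0 in 1 (median 0.48, and 0.43 without low library 2), with 0 called by limma. In 2 of the 4 every low library was above every high one, against 10.4% of all genes. These markers summed to 71.8 to 95.6 CPM in low and 71.6 to 91.9 CPM in high cryosurvival libraries. Most of that sum came from PDGFRA, the marker with a difference below 0. The part that the cells of all these blastocyst markers played in the carriers' values was not tested. Of markers of other cells, 3 of 8 for cumulus and granulosa cells were present, with a summed level of 23.0 to 27.8 CPM in low and 23.9 to 26.9 CPM in high cryosurvival libraries. Of the sperm markers 1 of 4 had a value, at 1.15 to 2.85 CPM in low and 1.63 to 3.08 CPM in high cryosurvival libraries, and of the blood markers 0 of 3. In RNA taken from many cells together, fewer cells of a type and less RNA per cell cannot be told apart.

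No carrier differed between the 2 groups at an adjusted p of 0.05. The lowest adjusted p belonged to SLC25A40, an importer of glutathione into mitochondria, whose transcript averaged 22.4 ± 3.57 CPM in low cryosurvival embryos and 32.5 ± 1.87 CPM in high ones (SD, 3 libraries each). It was followed by SLC25A29, a carrier of basic amino acids, at 70.4 ± 8.89 CPM in low cryosurvival embryos and 93.3 ± 11.4 CPM in high ones. The glutathione importer SLC25A39 lay in the other direction from SLC25A40, at 167 ± 11.9 CPM in low cryosurvival embryos and 148 ± 7.69 CPM in high ones. Its limma adjusted p was 0.692, and SLC25A37 (0.497) and SLC25A11 (0.519), both lower in low, had smaller ones. In low cryosurvival library 2 alone, the transcripts of SLC25A36, SLC25A16 and SLC25A15 were far below those of every other library and SLC25A4 far above.

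Limma, fitted to all genes, called 0 of the 31 members and 0.00% of all genes (adjusted p of the members 0.249 to 0.998). At an unadjusted p below 0.05 it counted 2 members, both lower in low cryosurvival embryos, and 12.0% of all genes, 5.70% lower in low. Voom, which models recovered reads with weights, also called 0 members and counted the same number, 2, at an unadjusted p below 0.05, with 11.7% of all genes. Of the members, 0 in the authors' deposited table had an adjusted p below 0.05, against 1.20% of all genes. In that deposited table of the authors, 1 member had an unadjusted p below 0.05, against 8.94% of all genes. The log2 difference, low minus high cryosurvival on log2(CPM + 1), was above 0 in 11 members (50.0% of all genes) and below 0 in 20, with a median of -0.051 against 0.00023 over all genes. Without low cryosurvival library 1 the members' median was 0.012, so its sign rested on that library. The 95% interval of the difference lay within 1 log2 unit of 0 in 28 of the 31 members, against 86.1% of all genes, and within 0.5 in 12, against 29.7%. For SLC25A36 (-1.82 to 0.52), SLC25A16 (-1.36 to 0.52) and SLC25A15 (-0.92 to 1.28) it reached past 1 log2 unit.

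**Figure D1:**
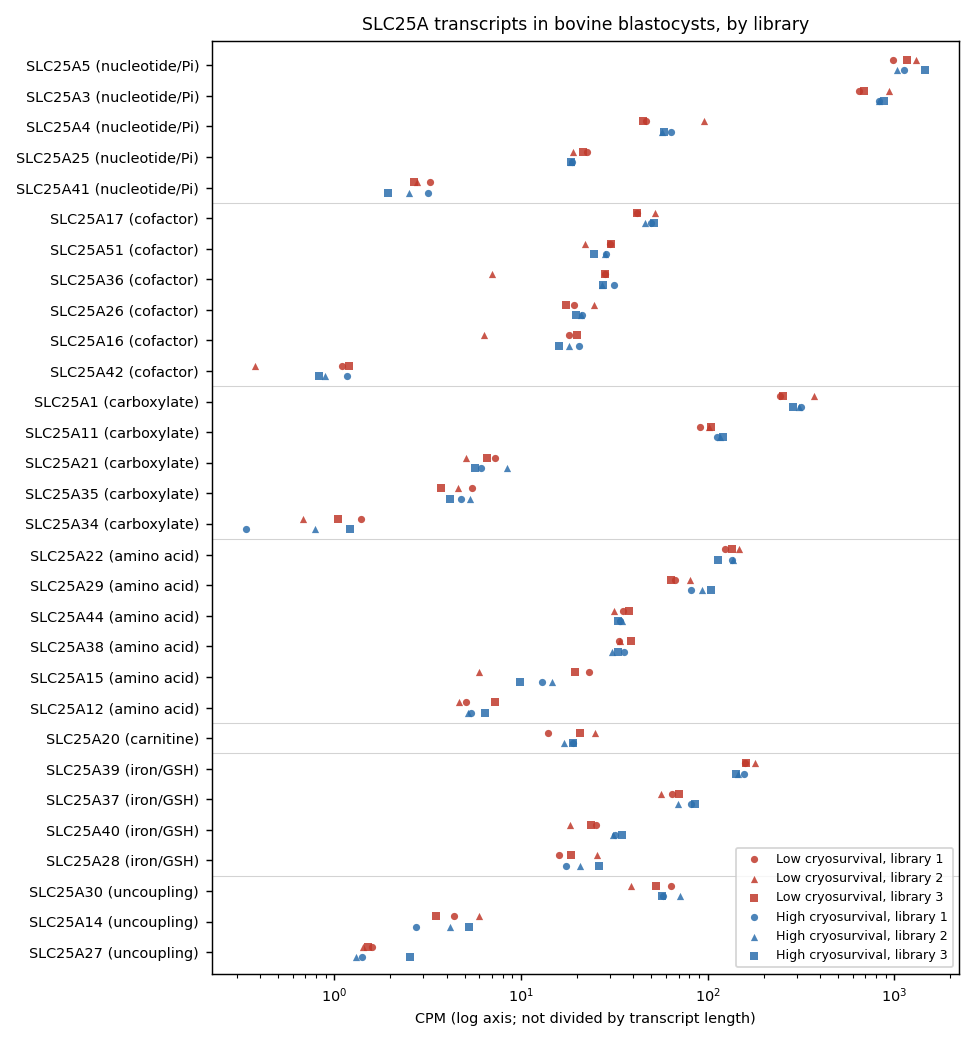
CPM of 30 of the 31 SLC25A members on a log axis in the 3 low (red) and 3 high (blue) cryosurvival libraries. Marker shape gives the library number, and rows are grouped by the substrate class under which each gene was listed. The libraries of a gene lie close together in most rows, while low cryosurvival library 2 (red triangles) stands apart in SLC25A36, SLC25A16, SLC25A15 and SLC25A4.

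In 5 of the 31 members (16.1%) the 3 low libraries did not overlap the 3 high ones, against 21.0% of all genes, so such separation was no more frequent among the carriers than in the table as a whole. Low lay below high in 3 members, SLC25A40, SLC25A29 and SLC25A11 (10.6% of all genes), and above it in 2, SLC25A39 and SLC25A25 (10.4% of all genes). In SLC25A29, SLC25A39 and SLC25A25 the nearest low and high libraries lay closer together than the SD that counting reads alone gives. The plot of these 5 members by library shows the gap between the groups beside the spread within each.

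**Figure D2:**
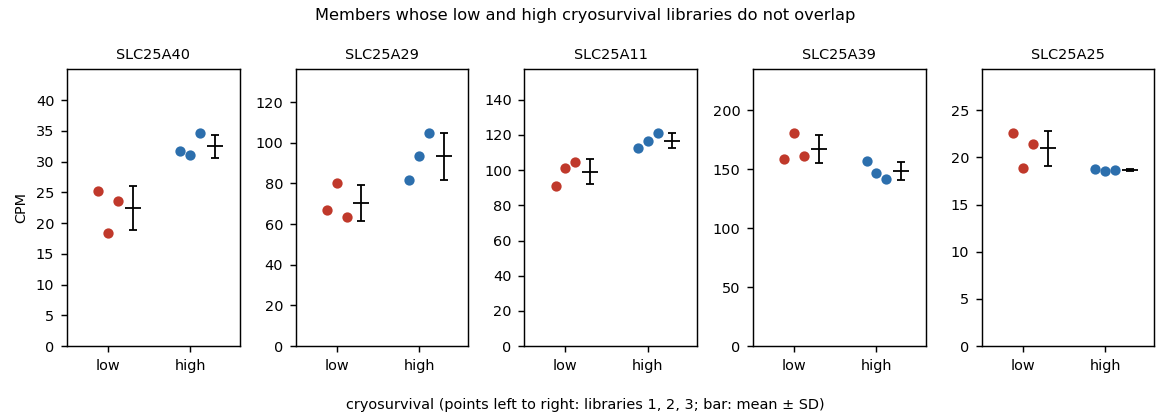
CPM per library (points, libraries 1 to 3 from left to right) with mean ± SD (bars) for the 5 members whose groups do not overlap, low cryosurvival in red and high in blue, on axes that start at 0. SLC25A40 has the widest gap in proportion, with 18.4 to 25.2 CPM in low against 31.1 to 34.6 CPM in high cryosurvival libraries.

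Among the carriers of glutathione and iron, SLC25A40 had 25.2, 18.4 and 23.7 CPM in low cryosurvival libraries 1, 2 and 3, against 31.8, 31.1 and 34.6 CPM in high libraries 1, 2 and 3. Every low library was below every high one. The log2 difference was -0.53 ± 0.15 (SE; 95% interval -0.89 to -0.17), with a limma adjusted p of 0.249. In the authors' deposited table its adjusted p was 0.358 and its fold, turned to low over high, -0.53 on the log2 scale. Low cryosurvival library 2 had the lowest value, and without it the log2 difference was smaller, at -0.40, with a limma adjusted p of 0.0409. In that fit 13.6% of all genes were called, against 0.00% with all libraries. SLC25A39 had 159, 180 and 161 CPM in the low libraries, against 157, 146 and 142 CPM in the high ones. The groups were narrowly apart, with a log2 difference of 0.17 ± 0.12 (SE; limma adjusted p = 0.692).

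SLC25A39 and SLC25A40 are close relatives that can replace each other in glutathione import in human cells, so their ratio within a library was compared as well. The log2 ratio of SLC25A39 to SLC25A40 was 2.61, 3.23 and 2.72 in the low libraries, against 2.27, 2.20 and 2.0 in the high ones. The ratio was higher in every low library, by 0.69 on average. The exact two-sided permutation test gave p = 0.1, the smallest value that 3 libraries against 3 allow, and 0.3 after adjustment over the 3 pairs compared. Both genes already separated the groups, in opposite directions, so the ratio had to separate them too. This p therefore adds no support beyond the values of each gene. The difference was 0.51 without low cryosurvival library 2. A ratio shows that the pair differed unequally between the groups and not which of them changed.

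SLC25A37 and SLC25A28 are the mitoferrins, which bring iron into the matrix for heme and iron-sulfur clusters. SLC25A37 had 64.5, 56.2 and 70.2 CPM in the low libraries, against 81.2, 69.1 and 85.9 CPM in the high ones. The groups overlapped only between low library 3 and high library 2, and the log2 difference was -0.30 ± 0.15 (SE; limma adjusted p = 0.497). A further bovine gene record carries SLC25A37 as a synonym, and its reads may not have been separated from this gene. SLC25A28 had 15.9, 25.5 and 18.5 CPM in the low libraries, against 17.5, 20.7 and 26.3 CPM in the high ones. Its groups overlapped throughout, with a log2 difference of -0.11 ± 0.22 (SE; limma adjusted p = 0.929). The log2 ratio of SLC25A37 to SLC25A28 was 1.95, 1.11 and 1.87 in the low libraries, against 2.15, 1.70 and 1.67 in the high ones (exact permutation p = 0.6, adjusted 0.9). The difference in this ratio was -0.20, and 0.069 without low cryosurvival library 2.

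**Figure D3:**
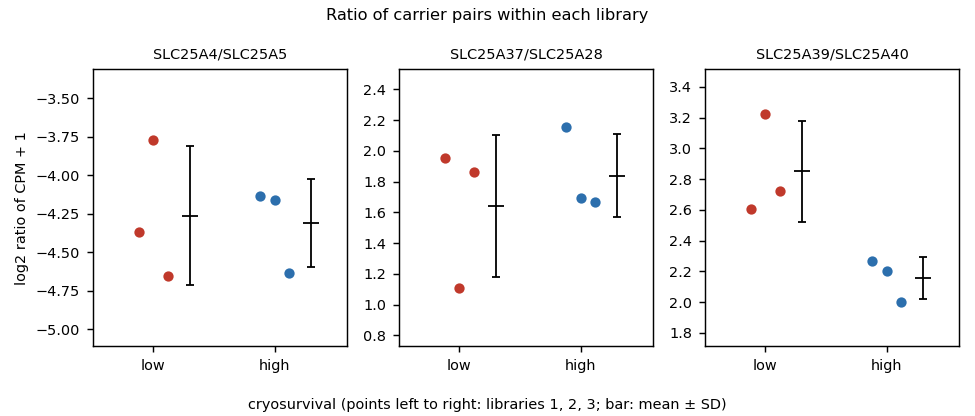
Log2 ratio of CPM + 1 within each library for the 3 carrier pairs measured, with low cryosurvival in red and high in blue, libraries 1 to 3 from left to right and bars for mean ± SD; each panel spans the same range of log2 units but is centred on its own values. The SLC25A39 to SLC25A40 ratio lies at 2.61 to 3.23 in low and 2.0 to 2.27 in high cryosurvival libraries, and the groups overlap in the other pairs.

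Of the 9 carriers listed for amino acids, 6 were measured, 4 with a log2 difference above 0 and 2 below. SLC25A29, which carries arginine, lysine and ornithine, had 67.0, 80.4 and 63.7 CPM in the low libraries, against 81.9, 93.4 and 105 CPM in the high ones. Low library 2 was just below high library 1, and the others were farther apart. The log2 difference was -0.40 ± 0.15 (SE; 95% interval -0.77 to -0.039; limma adjusted p = 0.364), and the adjusted p of the authors' deposited table was 0.558. Without low cryosurvival library 2 the log2 difference was -0.50, with a limma adjusted p of 0.0433.

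SLC25A15, the ornithine-citrulline exchanger of the urea cycle, had 23.3, 5.93 and 19.6 CPM in the low libraries, against 13.0, 14.7 and 9.87 CPM in the high ones. Low libraries 1 and 3 were above every high library and low library 2 was below every one of them. Its log2 difference was 0.18 ± 0.46 (SE; limma adjusted p = 0.947). Without low cryosurvival library 2 it was 0.74, with a limma adjusted p of 0.0394.

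The glutamate carrier SLC25A22 had 124, 148 and 135 CPM in the low libraries, against 135, 137 and 114 CPM in the high ones. The groups overlapped, and the log2 difference of 0.081 ± 0.14 (SE; limma adjusted p = 0.905) had a 95% interval of -0.25 to 0.41. The glycine carrier SLC25A38, which feeds heme synthesis, averaged 35.3 ± 2.93 CPM in low cryosurvival embryos and 33.2 ± 2.50 CPM in high ones. SLC25A44, a carrier of branched-chain amino acids, averaged 34.8 ± 3.14 CPM in low cryosurvival embryos and 34.0 ± 0.691 CPM in high ones. The SD of its high libraries was below the 1.36 CPM that counting reads alone gives. The aspartate-glutamate carrier SLC25A12, a part of the malate-aspartate shuttle, averaged 5.68 ± 1.40 CPM in low cryosurvival embryos and 5.69 ± 0.659 CPM in high ones (SD, 3 libraries each). These 3 members had limma adjusted p values from 0.891 to 0.988.

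Of the 6 genes listed as carboxylate and keto acid carriers, 5 were measured. SLC25A11, which exchanges 2-oxoglutarate for malate in the malate-aspartate shuttle, had 91.0, 101 and 105 CPM in the low libraries, against 113, 116 and 121 CPM in the high ones. Every low library was below every high one, with a log2 difference of -0.24 ± 0.12 (SE; limma adjusted p = 0.519). The citrate carrier SLC25A1, which exports citrate for fatty acid and sterol synthesis, had 244, 372 and 253 CPM in the low libraries, against 318, 309 and 286 CPM in the high ones. Low libraries 1 and 3 lay below the high range and low library 2 above it, with a log2 difference of -0.096 ± 0.19 (SE; limma adjusted p = 0.923). Without low library 2 that difference was -0.29 (limma adjusted p = 0.0756). SLC25A21, a carrier of oxodicarboxylates, averaged 6.31 ± 1.11 CPM in low cryosurvival embryos and 6.75 ± 1.48 CPM in high ones. SLC25A35 averaged 4.58 ± 0.863 CPM in low cryosurvival embryos and 4.76 ± 0.594 CPM in high ones. SLC25A34 rested on 9 to 28 reads per low and 6 to 22 reads per high library, at 1.04 ± 0.361 CPM in low cryosurvival embryos and 0.781 ± 0.442 CPM in high ones.

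The carriers of adenine nucleotides and phosphate serve ATP synthesis. Of 9 listed, 5 were measured. SLC25A5, an ADP/ATP translocase of dividing cells, had 990, 1313 and 1165 CPM in the low libraries, against 1134, 1039 and 1471 CPM in the high ones. The groups overlapped, with high library 3 above every low library and low library 1 below every high one, and with a log2 difference of -0.065 ± 0.18 (SE; 95% interval -0.50 to 0.37; limma adjusted p = 0.951). SLC25A3, the phosphate carrier, had 652, 944 and 690 CPM in the low libraries, against 831, 827 and 880 CPM in the high ones. Low libraries 1 and 3 were below the high range and low library 2 above it. The log2 difference was -0.17 ± 0.17 (SE; limma adjusted p = 0.807), and -0.33 without low library 2 (limma adjusted p = 0.0513).

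SLC25A4, the ADP/ATP translocase best known from heart and muscle, had 47.0, 95.4 and 45.4 CPM in the low libraries, against 63.6, 57.3 and 58.1 CPM in the high ones. Low libraries 1 and 3 were below every high library, and low library 2 was the highest of all. The log2 difference was -0.018 ± 0.29 (SE; limma adjusted p = 0.990). Without low cryosurvival library 2 it was -0.36, with a limma adjusted p of 0.0479. The log2 ratio of SLC25A4 to SLC25A5 was -4.37, -3.77 and -4.65 in the low libraries, against -4.13, -4.16 and -4.64 in the high ones, and the groups overlapped (exact permutation p = 1, adjusted 1). The translocases are closely similar in sequence, so reads may be shared between them and with copies that were not analysed here.

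SLC25A25, a calcium-regulated carrier of ATP-Mg and phosphate, had 22.6, 18.9 and 21.5 CPM in the low libraries, against 18.8, 18.6 and 18.6 CPM in the high ones. Low library 2 was only just above the high range, and the log2 difference was 0.16 ± 0.12 (SE; limma adjusted p = 0.720). The SD of the high libraries, 0.0829 CPM, was below the 1.01 CPM that counting reads alone gives. SLC25A41, a calcium-independent relative, averaged 2.90 ± 0.305 CPM in low cryosurvival embryos and 2.55 ± 0.627 CPM in high ones (SD, 3 libraries each, limma adjusted p = 0.835). Its SD in the low libraries was below the 0.41 CPM that counting reads alone gives.

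Of 10 carriers listed for cofactors and nucleotides, 7 were measured, 6 with a log2 difference below 0 and 1 above. SLC25A36, a carrier of pyrimidine nucleotides, had 28.1, 6.99 and 28.2 CPM in the low libraries, against 31.7, 27.3 and 27.5 CPM in the high ones. Low library 2 held less than any other, and the other 5 libraries lay between 27.3 and 31.7 CPM. The log2 difference was -0.65 ± 0.49 (SE; limma adjusted p = 0.714), and -0.030 without low library 2. SLC25A16, linked to coenzyme A in mitochondria, had 18.2, 6.31 and 20.1 CPM in the low libraries, against 20.6, 18.0 and 16.1 CPM in the high ones. Its log2 difference of -0.42 ± 0.40 (SE; limma adjusted p = 0.799) was 0.070 without low library 2. SLC25A42, a coenzyme A carrier, rested on 5 to 23 reads per low and 15 to 21 reads per high library, at 0.893 ± 0.451 CPM in low cryosurvival embryos and 0.967 ± 0.185 CPM in high ones.

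The peroxisomal carrier SLC25A17 averaged 45.4 ± 5.87 CPM in low cryosurvival embryos and 49.4 ± 3.06 CPM in high ones. SLC25A51, which imports NAD, averaged 27.4 ± 4.67 CPM in low cryosurvival embryos and 27.1 ± 2.24 CPM in high ones. SLC25A26, which imports the methyl donor S-adenosylmethionine, averaged 20.5 ± 3.77 CPM in low cryosurvival embryos and 20.6 ± 0.798 CPM in high ones (SD, 3 libraries each). Its SD in the high libraries was below the 1.06 CPM that counting reads alone gives. These 3 members had limma adjusted p values from 0.838 to 0.998.

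The carnitine-acylcarnitine carrier SLC25A20, which brings fatty acids into the matrix for oxidation, had 14.0, 25.0 and 20.7 CPM in the low libraries, against 19.0, 17.0 and 19.1 CPM in the high ones. The low libraries spread on both sides of the high ones, with a log2 difference of 0.074 ± 0.21 (SE; limma adjusted p = 0.951). The 3 carriers related to uncoupling proteins had adjusted p values of 0.700 to 0.916. SLC25A30 had 63.5, 39.0 and 52.8 CPM in the low libraries, against 57.8, 70.9 and 57.4 CPM in the high ones, with a log2 difference of -0.28 that was -0.090 without low library 2. SLC25A14 averaged 4.61 ± 1.23 CPM in low cryosurvival embryos and 4.07 ± 1.27 CPM in high ones. SLC25A27 averaged 1.51 ± 0.0856 CPM in low cryosurvival embryos and 1.75 ± 0.691 CPM in high ones (SD, 3 libraries each). It rested on 19 to 32 reads per low and 25 to 46 reads per high library. The SD of its low libraries was below the 0.298 CPM that counting reads alone gives.

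**Figure D4:**
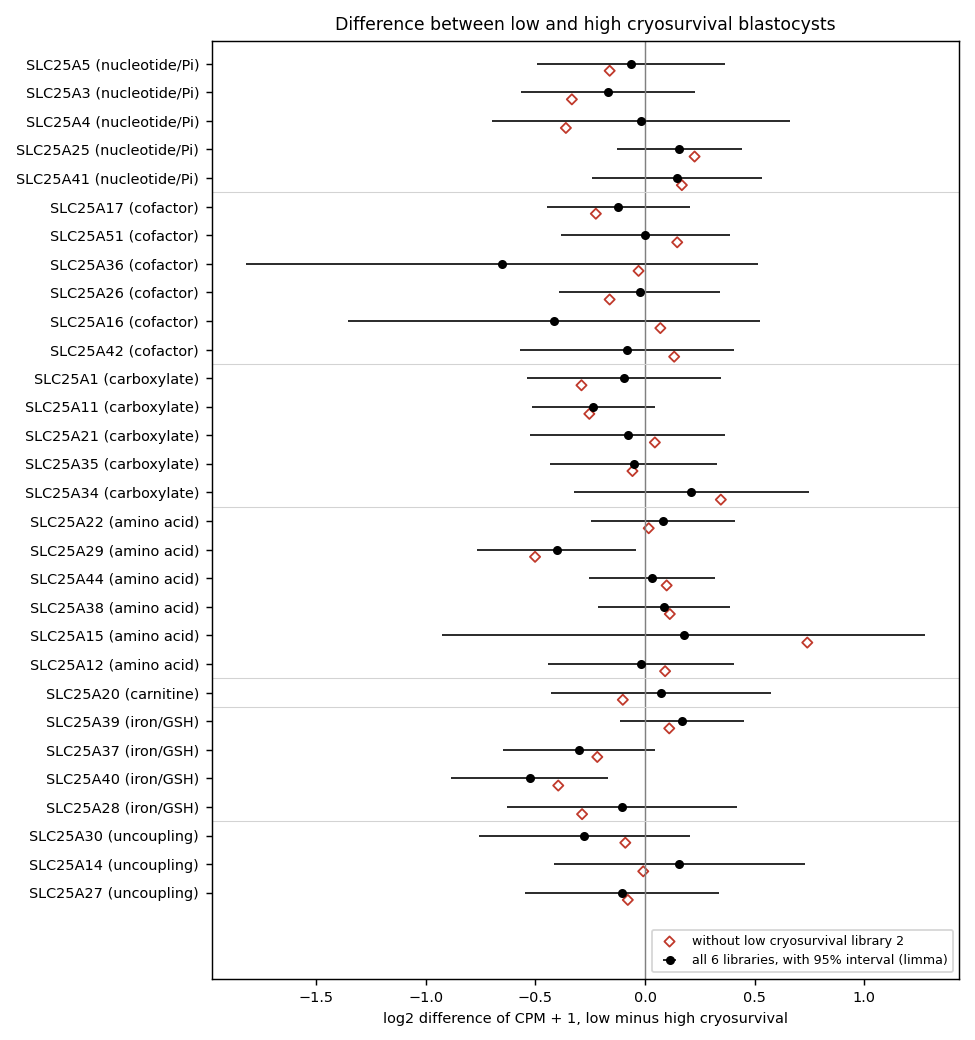
Log2 difference of CPM + 1, low minus high cryosurvival, for 30 of the 31 members with 95% intervals from limma on all 6 libraries (black) and the difference without low cryosurvival library 2 (open red diamonds). With all libraries only the intervals of SLC25A40 and SLC25A29 leave out 0, and the diamonds lie far from the black points for SLC25A36, SLC25A16, SLC25A15 and SLC25A4.

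The spread within the low group came mainly from its library 2. The highest low library was over 2 times the lowest in 6 of the 31 members, against 21.7% of all genes. In the high group this held for 1 member, SLC25A34, against 3.53% of all genes, and between low libraries 1 and 3 for 0 members, against 1.46% of all genes. Low library 2 was the highest of the 6 libraries in 10 members and the lowest in 11. Over all genes it was the highest in 34.4% and the lowest in 35.5%, close to the members' 32.3% and 35.5%. Leaving it out turned the sign of the difference in 6 members (19.4%), against 25.8% of all genes. Without it limma, with 2 low against 3 high libraries, called 4 of the 31 members (12.9%) and 13.6% of all genes. The 3 members SLC25A40, SLC25A29 and SLC25A4 were then lower (5.48% of all genes) and the 1 member SLC25A15 higher (8.15% of all genes) in low cryosurvival embryos. The part that this library's state played in the values with all 6 libraries was not tested.

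**Figure D5:**
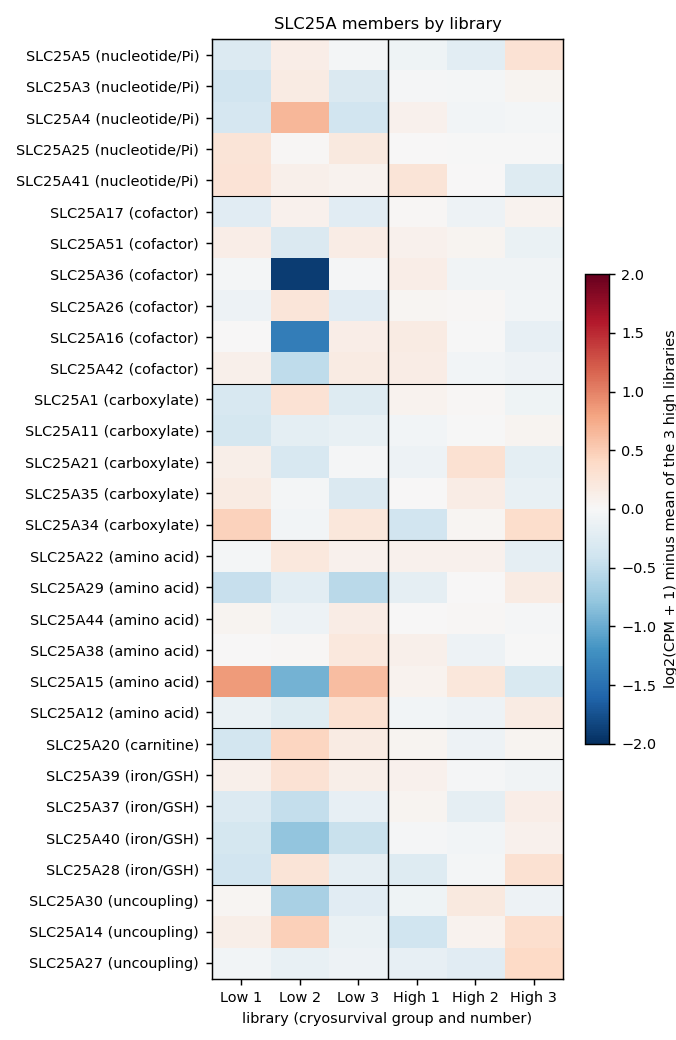
Log2(CPM + 1) of 30 of the 31 members in each library minus the mean of the 3 high cryosurvival libraries, with low libraries on the left, red for above and blue for below that mean. Low library 2 differs in both directions, with SLC25A36, SLC25A16 and SLC25A15 below and SLC25A4 above, where low libraries 1 and 3 are close to each other.

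Summed over the 31 members the level was 2865, 3666 and 3122 CPM in the low libraries, against 3352, 3241 and 3692 CPM in the high ones. The groups overlapped, and SLC25A5 and SLC25A3 made up most of each sum. Among relatives of the family under other names, MTCH1, an outer membrane protein, had 370, 360 and 352 CPM in the low libraries, against 345, 364 and 347 CPM in the high ones. UCP2, an uncoupling protein homologue, had 195, 193 and 156 CPM in the low libraries, against 129, 156 and 185 CPM in the high ones. The 3 measured genes of this list had log2 differences above 0 and a median of 0.11, and 0 were called by limma. Without low library 2 the median was 0.036 and the difference of MTCH2, another outer membrane protein, was -0.0071.

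Genes that import carriers into mitochondria were measured in 14 of 16 cases, 9 with a log2 difference above 0 and 5 below, and 0 were called by limma (median 0.044). Low library 2 was the highest of the 6 libraries in 11 of the 14, and the list's summed level was 1550, 2588 and 1695 CPM in the low libraries, against 1900, 1805 and 1840 CPM in the high ones. Without it the median was -0.19 and 1 gene of the 14 was called, against 13.6% of all genes. It was the small chaperone of import TIMM8B, named after its values were seen, which was lower in low cryosurvival embryos (limma adjusted p = 0.0490). TOMM40, the pore of the outer membrane translocase, had 390, 476 and 432 CPM in the low libraries, against 483, 465 and 398 CPM in the high ones. TOMM20, a receptor of that translocase, had 304, 482 and 329 CPM in the low libraries, against 346, 326 and 325 CPM in the high ones. AGK, a subunit of the carrier translocase of the inner membrane that was named after its values were seen, had 35.1, 20.1 and 33.0 CPM in the low libraries, against 43.8, 41.0 and 40.5 CPM in the high ones. It was the only gene of the 14 whose groups did not overlap, against 21.0% of all genes (log2 difference -0.53, limma adjusted p = 0.404).

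Other mitochondrial transporters were measured in 15 of 19 cases, 8 above 0 and 7 below, with a median log2 difference of 0.021 that was -0.080 without low library 2, and 0 called. MPC1, a subunit of the pyruvate carrier, had 711, 1132 and 727 CPM in the low libraries, against 933, 896 and 926 CPM in the high ones. Its log2 difference was -0.13 (limma adjusted p = 0.889), and -0.35 without low library 2 (limma adjusted p = 0.0411). The calcium uniporter regulator MICU2, named after its values were seen, was the only other gene of the 15 called without that library (log2 difference -0.33, limma adjusted p = 0.0488). These 2 of 15 stand against 13.6% of all genes called in the same fit. VDAC2, a channel of the outer membrane, had 756, 805 and 701 CPM in the low libraries, against 844, 814 and 787 CPM in the high ones (limma adjusted p = 0.818).

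The enzymes on either side of the malate, aspartate and citrate carriers were measured in 8 of 8 cases, 2 above 0 and 6 below, with a median log2 difference of -0.15 that was -0.0020 without low library 2. Limma called 0 of them. Citrate synthase (CS) had 1224, 922 and 1241 CPM in the low libraries, against 1265, 1281 and 1230 CPM in the high ones. The malate dehydrogenase MDH2 had 672, 782 and 684 CPM in the low libraries, against 814, 807 and 763 CPM in the high ones.

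Of the carnitine enzymes, 4 of 4 were measured, 2 with a log2 difference above 0 and 2 below, and 0 were called. CRAT, carnitine acetyltransferase, had 67.8, 58.7 and 65.0 CPM in the low libraries, against 48.9, 52.9 and 44.8 CPM in the high ones. Every low library was above every high one (log2 difference 0.38, limma adjusted p = 0.315; 0.44 and 0.0401 without low library 2). CPT1A, which commits fatty acids to mitochondrial import, had 84.1, 48.7 and 107 CPM in the low libraries, against 60.0, 58.4 and 61.0 CPM in the high ones. Its log2 difference was 0.34 (limma adjusted p = 0.742), and 0.66 without low library 2 (limma adjusted p = 0.0248). CPT1B, the form of that enzyme best known from muscle, had 13.2, 8.19 and 11.3 CPM in the low libraries, against 17.0, 13.5 and 18.5 CPM in the high ones (log2 difference -0.56, limma adjusted p = 0.345). CPT2, the partner enzyme of the inner membrane, had 30.6, 26.4 and 35.7 CPM in the low libraries, against 35.9, 37.8 and 37.2 CPM in the high ones (log2 difference -0.26, limma adjusted p = 0.567). In both, every low library was below every high one, so 3 of the 4 carnitine enzymes had groups that did not overlap, against 21.0% of all genes. The 3 did not share a direction, and the list is short. Of the other mitochondrial transporters, 1 had low above high and 2 had low below high. Among the malate-aspartate and citrate enzymes and the iron and heme genes it was 0.

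Genes of iron-sulfur and heme synthesis were measured in 5 of 6 cases, 4 above 0 and 1 below, with a median log2 difference of 0.10 that was -0.053 without low library 2, and 0 called. The most strongly sampled were ALAS1, the first enzyme of heme synthesis, with 160, 137 and 131 CPM in the low libraries, against 131, 142 and 129 CPM in the high ones, and the sulfur donor NFS1, with 31.4, 38.7 and 34.1 CPM in the low libraries, against 30.9, 33.0 and 31.2 CPM in the high ones. The gene below 0 was FECH, the last enzyme of heme synthesis, with 34.3, 13.1 and 36.4 CPM in the low libraries, against 35.4, 39.8 and 35.0 CPM in the high ones. Its log2 difference was -0.51 (limma adjusted p = 0.696), and -0.053 without low library 2.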

How the data were processed

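RNA was sequenced from 6 libraries, 3 per group. The submitters' processing notes name, with no stated use, HTSeq 0.5.4p2, DESeq 1.12.1, TopHat2 2.0.8, Cufflinks 2.1.1, Bowtie2 2.1.0 and SAMtools 0.1.18. Genome build, annotation, strand use and any low-count filter were not given in the sources used here. The deposited table held CPM per library, a log2 fold of high over low (its sign was turned here), and p-values and adjusted p-values with 3 decimals, per the file headers and values. Dividing by the CPM of 1 read gave whole reads (tolerance 0.05 read) for 100% of values up to 1000 CPM, and these recovered reads were used for voom. Groups were tested by limma (version 3.58.1, under R 4.3.3) using log2(CPM + 1), without trend or covariate, low minus high, with Benjamini-Hochberg adjustment over 9537 genes at 0.05. The pseudocount understates changes at low CPM. The fit was tested on simulated counts with the same setting of spread for every gene and no library that stood apart. That test does not show how often the fit finds differences in libraries like these. Pair ratios used exact two-sided permutation; of 9 pairs listed, 3 had both members. Members, lists and alternatives were chosen with earlier results of these data known. Of the members, 1 is counted in all totals and is not reported by itself here. Values per library are given for members whose groups do not overlap, the 6 with most CPM, members of pairs, and, chosen after values were seen, SLC25A15, SLC25A36, SLC25A16, SLC25A20 and SLC25A30; related lists show their 2 genes with most CPM and, also chosen after values were seen, NANOG, MTCH2, CPT1B, CPT2 and FECH. Counting error is not biological error.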

Additional observations from a re-analysis of the deposited data

How the results depend on the processing

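Limma called 0 genes with all 6 libraries, 10 with a pseudocount of 0.5, 7 with a pseudocount of 0.1, 7 among genes with a mean of at least 5 CPM and 5 with median-ratio size factors; none of these were SLC25A members. With each library left out the count ranged from 0 to 1300 genes and from 0 to 4 members, and only the omission of low cryosurvival library 2 gave any. The members' median difference ranged from -0.066 to 0.012. Deviations of same-numbered libraries from their group means had correlations of r = 0.12, -0.26 and -0.31 over 9537 genes. Deviations from a mean of 3 libraries depend on each other, and low library 2 stood apart. These correlations therefore cannot decide whether the numbers pair the libraries. With replicate number as a block limma called 0 genes and 0 members, and the members' median was -0.051. Voom, chosen after the files were seen, called 0 genes; the planned count-model tests on recovered reads were not run. The difference of the SLC25A4 to SLC25A5 ratio ranged from -0.20 to 0.24 and that of SLC25A37 to SLC25A28 from -0.35 to 0.069 with each library left out. SLC25A39 to SLC25A40 kept its sign, at 0.51 to 0.82. Differences of single members changed sign when a library was left out, among the 30 members shown one by one, for SLC25A1 (-0.29 to 0.013), SLC25A4 (-0.36 to 0.17), SLC25A5 (-0.17 to 0.081), SLC25A12 (-0.18 to 0.091), SLC25A14 (-0.047 to 0.32), SLC25A15 (-0.16 to 0.74), SLC25A16 (-0.69 to 0.070), SLC25A20 (-0.10 to 0.29), SLC25A21 (-0.18 to 0.071), SLC25A22 (-0.0046 to 0.15), SLC25A26 (-0.16 to 0.076), SLC25A27 (-0.22 to 0.094), SLC25A28 (-0.29 to 0.044), SLC25A35 (-0.16 to 0.064), SLC25A42 (-0.21 to 0.13), SLC25A44 (-0.028 to 0.099) and SLC25A51 (-0.074 to 0.15). The causes were not tested. The other members shown one by one kept their sign. Among these were SLC25A40 (-0.61 to -0.40), SLC25A29 (-0.50 to -0.32), SLC25A37 (-0.39 to -0.22), SLC25A11 (-0.28 to -0.18) and SLC25A39 (0.11 to 0.21). SLC25A34 and SLC25A42 had 5 to 28 reads per library, with a counting SD of 0.206 to 0.242 CPM against 0.185 to 0.451 CPM between libraries of a group.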
